A study of Mus musculus with 18 samples.

Results

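The 10 genes named here belong to the Notch pathway and were followed in normal mouse prostate and in tumours of the TRAMP mouse. They are the receptors Notch1, Notch2, Notch3 and Notch4, the ligands Dll1, Jag1 and Jag2, the target genes Hes1 and Hey1, and Dlk1. A probe set, the group of array probes whose signals are summarised into 1 value, was a member if the platform annotation gave 1 of these symbols as its only gene. The rule found 19 probe sets of 45037 that are no controls, for 10 genes of 18193 on the array, and no member probe set also named another gene.

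The series holds 18 Affymetrix arrays of total RNA. The normal group is 9 samples of normal prostates, taken from the ventral and dorsolateral lobes. The tumour group is 9 TRAMP tumours, from the transgenic adenocarcinoma of the mouse prostate model, in which SV40 T antigens are expressed from the rat probasin promoter in prostate epithelium. The labels give neither age, strain nor the source lobe of the tumours, and they do not say whether the samples of a group are from different animals, so p-values describe sample-to-sample spread, which may be technical.

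Notch receptors are membrane proteins activated by Delta-like and Jagged ligands on neighbouring cells. Ligand binding lets proteases release the intracellular part of the receptor, which enters the nucleus, joins the DNA-binding protein RBPJ and Mastermind coactivators, and turns on repressors of the Hes and Hey families. In the prostate the pathway is known for its part in basal and luminal epithelial differentiation, and it also acts in blood vessels and smooth muscle. RBPJ recognises a short DNA core, GTGGGAA, which was searched on both strands (TTCCCAC is the other strand) in the 250 bases before each gene start of the RefSeq promoter table, build GRCm38.p6. The core is held by 5.42% of the 32851 promoters in that table. Promoters were found for 8 of the 10 members, 9 promoters in all, and 0 of them hold the core. Hes1 and Hey1, the target genes among the members, had no promoter in that table and were not searched. Of 39 other pathway genes with a promoter, 6 hold it in at least 1, namely Hes5, Hes7, Hey2, Lfng, Psen2 and Spen. This is a count of genes, some with several promoters, so it cannot be set against the 5.42% of promoters. The Hes5 and Lfng promoters are shown because these textbook target genes carry the core, 2 matches facing opposite ways in Hes5 and 1 in Lfng, and the Notch1 and Jag1 promoters because these members had the probe sets nearest to or past the threshold for a rise. Capitals mark the core. The Hes5 window is chr4:154960673-154960922 on the plus strand, the Lfng window chr5:140607091-140607340 on the plus strand, the Notch1 window chr2:26503823-26504072 on the minus strand and the Jag1 window chr2:137116521-137116770 on the minus strand.
Hes5: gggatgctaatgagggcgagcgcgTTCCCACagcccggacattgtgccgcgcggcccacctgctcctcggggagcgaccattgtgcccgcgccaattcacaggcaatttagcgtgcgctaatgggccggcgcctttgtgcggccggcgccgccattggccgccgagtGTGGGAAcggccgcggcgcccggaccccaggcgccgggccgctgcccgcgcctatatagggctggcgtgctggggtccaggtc
Lfng: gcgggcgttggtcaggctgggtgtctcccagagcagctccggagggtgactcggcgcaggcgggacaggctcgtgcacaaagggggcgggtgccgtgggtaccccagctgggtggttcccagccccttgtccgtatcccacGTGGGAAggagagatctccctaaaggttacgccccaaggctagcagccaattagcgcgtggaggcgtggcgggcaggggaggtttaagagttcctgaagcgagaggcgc
Notch1: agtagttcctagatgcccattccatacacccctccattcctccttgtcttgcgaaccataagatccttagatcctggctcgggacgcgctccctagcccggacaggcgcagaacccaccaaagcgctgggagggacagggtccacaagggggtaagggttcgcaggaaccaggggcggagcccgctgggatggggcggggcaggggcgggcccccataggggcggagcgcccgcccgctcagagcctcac
Jag1: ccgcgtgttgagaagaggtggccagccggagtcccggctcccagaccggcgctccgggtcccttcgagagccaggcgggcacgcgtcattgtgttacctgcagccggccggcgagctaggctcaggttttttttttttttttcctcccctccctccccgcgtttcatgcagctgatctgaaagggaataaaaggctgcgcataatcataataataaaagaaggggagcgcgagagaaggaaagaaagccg
A match is a description of letters in this window and shows no binding.

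Values are log2(signal + 16), and differences are tumour minus normal on that scale, which understates changes of dim genes. A probe set is called dim on an array where it lay under that array's 40th percentile. Each gene is represented by its brightest probe set that was above that percentile on at least 9 of 18 arrays, and limma tested 12793 such genes with Benjamini-Hochberg adjustment at 0.05. All 10 members were among them, with 14 of their 19 probe sets, and 5 probe sets lay under the filter. Errors are standard errors of the limma fit over 9 normal and 9 tumour arrays, whose number limits the precision.

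Several arrays stood apart. Spike controls added before labelling were bright on 11 arrays (normals 1 to 6 and tumours 1 to 5) and dim on 7 (normals 7 to 9 and tumours 6 to 9). Normal 9 correlated better with tumour 7 than with any normal, and tumour 4 better with normal 3 than with any tumour. The prostate markers Pbsn and Hoxb13 read 4.18 and 4.50 on normal 9, against at least 8.08 and 10.85 on the other normals, while genes of seminal vesicle secretion were high there and on tumours 3, 5, 6, 7 and 8. Pbsn was dim on every tumour array. Tumours 1, 4 and 9 were high in neuroendocrine markers, with list means of 10.6, 9.45 and 10.9 where normals reached 6.81. Tumours 6 and 8 were the most alike pair of arrays (Pearson r = 0.960 over kept probe sets). The actin 3' to 5' signal ratio, which grows as RNA degrades, had medians of 1.71 in normals and 0.952 in tumours (log2).

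None of the Notch members passed the threshold between tumours and normal prostate: limma called 0 of 10, where it called 24.0% of all 12793 genes. At an unadjusted p under 0.05 the count was 1 of 10, Hes1, against 37.1% of all genes. The log2 difference was above 0 for 6 members and below 0 for 4, and its median over the members was 0.11, against -0.012 over all genes. No member had groups that did not overlap, as 2.38% of all genes did. In bulk tissue fewer cells of a type and less RNA per cell cannot be told apart.

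**Figure D1:**
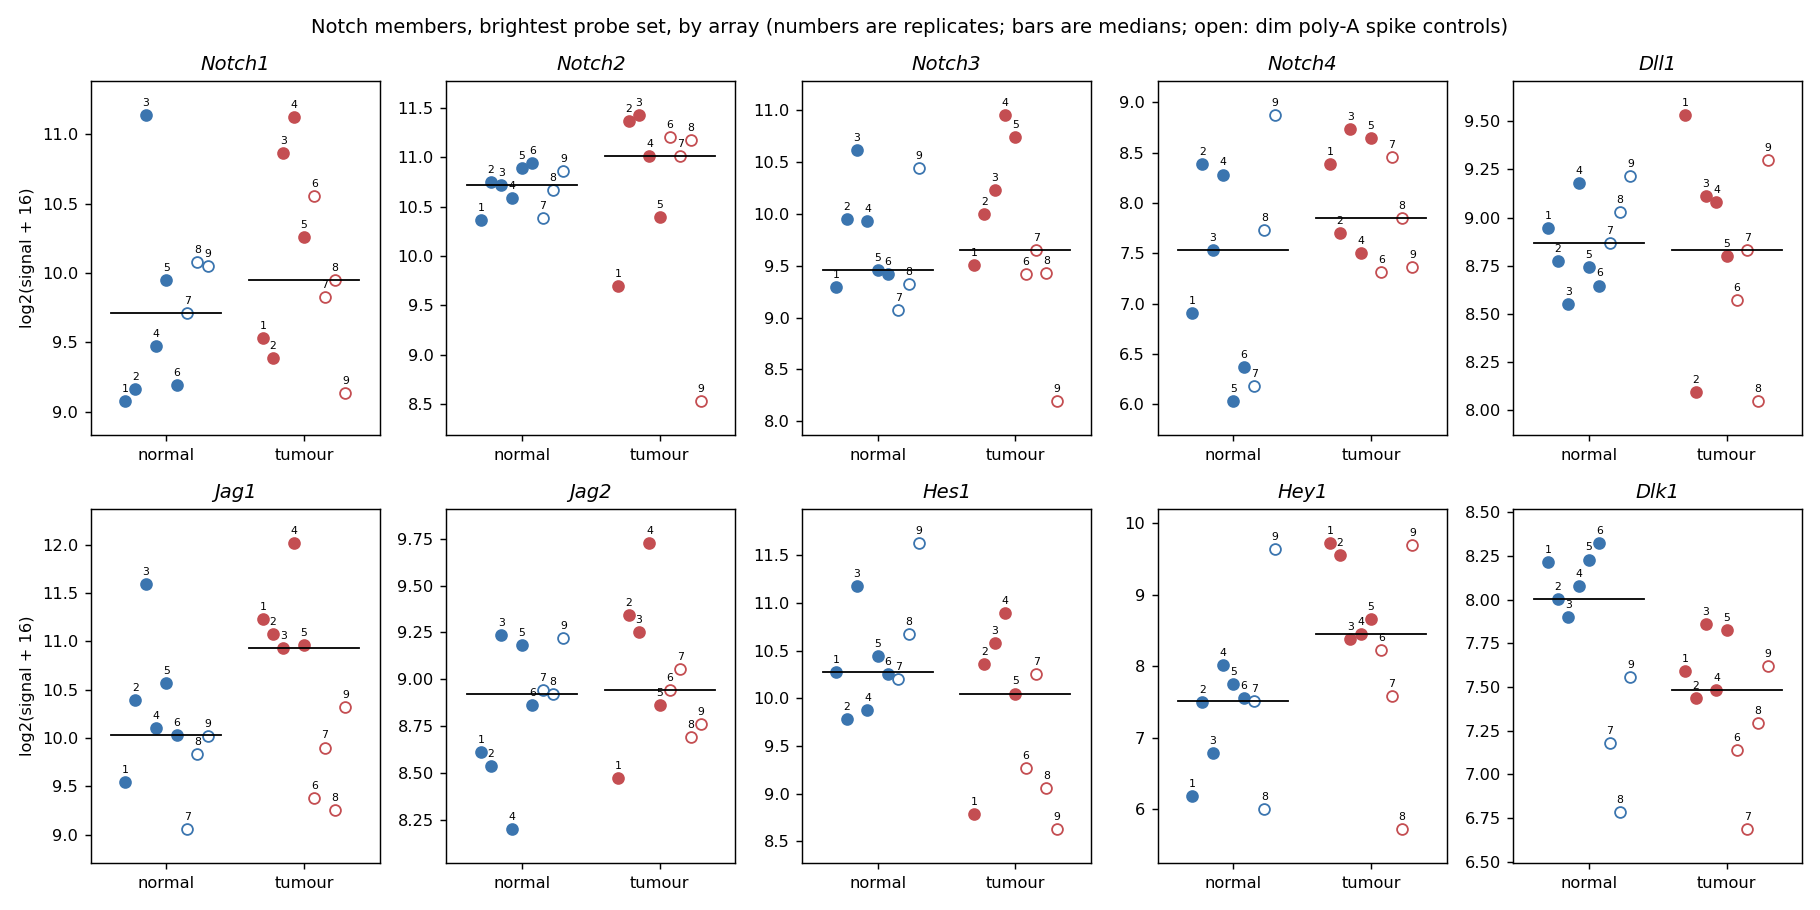
Log2(signal + 16) of the brightest probe set of each Notch member on 9 normal and 9 tumour arrays. Each point is an array with its replicate number, filled where the spike controls were bright and open where they were dim, and bars are group medians. Tumours and normals overlap for all 10 members, and the 4 lowest Hes1 values and 3 of the 4 highest Hey1 values are tumours.

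Hes1 and Hey1, which encode repressors switched on by Notch, had the differences of largest size among the members' brightest probe sets, and they lay in opposite directions. Hes1 ranged from 9.78 to 11.63 in normals, with a median of 10.28, and from 8.63 to 10.89 in tumours, with a median of 10.05. Tumours 1, 6, 8 and 9 lay below every normal at 8.79, 9.27, 9.06 and 8.63, while the other tumours lay within the normal range. The log2 difference was -0.71 ± 0.325 (SE; 95% confidence interval -1.39 to -0.033; limma adjusted p = 0.117), a 1.64-fold lower signal that did not pass the threshold.

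Hes1 differed in the 2 sets of arrays given by the spike controls. Among arrays with bright controls its log2 difference was -0.17, and among those with dim controls -1.53 (limma adjusted p = 0.787 and 0.298). The gap between those values was not tested. In the dim set normal 9 held the highest Hes1 value of all 18 arrays, 11.63, and 3 of its 4 tumours were among those below every normal. Leaving out normals 1, 3 and 9 and tumours 3, 4, 5 and 7 gave a difference of -0.98 (limma adjusted p = 0.0285, where 28.2% of all genes were called). These are some of the arrays high in genes of other tissues. Tumours 6 and 8, high in seminal vesicle genes and low in Hes1, stayed in that fit. Without normal 9 and tumours 3, 5, 6, 7 and 8 the Hes1 difference was -0.67 (adjusted p = 0.214). Without normal 9 and tumours 3, 5 and 7 it was -0.83 (adjusted p = 0.0787). Over all alternatives its adjusted p ranged from 0.0285 to 0.787.

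Tumours 1 and 9, the lowest but 1 and the lowest in Hes1, were high in the neuroendocrine list, of which 5 of 6 genes had a probe set. Tumour 4, also high in that list, had the highest Hes1 value of the tumours, 10.89, and tumours 6 and 8 were low in Hes1 with list means of 6.56 and 6.66, within the normal range. The part of neuroendocrine cells in the Hes1 values was not tested.

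Hey1 ranged from 6.01 to 9.65 in normals, with a median of 7.51, and from 5.73 to 9.72 in tumours, with a median of 8.46. Tumours 1, 2 and 9 were high at 9.72, 9.56 and 9.70, but normal 9 read 9.65 and tumour 8 was the lowest of all arrays at 5.73. Hey1 was above the normal median in 8 of 9 tumours, and its log2 difference was 1.004 ± 0.515 (SE; 95% confidence interval -0.075 to 2.08; limma adjusted p = 0.164). It was dim on 3 normal arrays and 1 tumour array, and with dim values raised to the 40th percentile the difference was 0.90.

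Hey1 was called in 1 of 18 omissions of a single array. Without tumour 8 the log2 difference was 1.34 (limma adjusted p = 0.0335, with 22.8% of all genes called). Among the 11 arrays with bright spike controls it was 1.66 (adjusted p = 0.0133), and among the 7 with dim controls 0.084 (adjusted p = 0.980). In the bright set 16.5% of all genes were called, and 2 of 10 members, Hey1 and, lower in tumours, Dlk1. Leaving out normal 9 and tumours 3, 5, 6, 7 and 8, which were high in seminal vesicle genes, gave 2.19 (adjusted p = 0.00114, with 38.0% of all genes called). That omission takes out the normal highest and the tumour lowest in Hey1, and keeps tumours 1, 4 and 9, high in neuroendocrine markers. Without tumours 1, 4 and 9 the Hey1 difference was 0.58 (adjusted p = 0.500, with 2501 of 12793 genes called). The adjusted p of Hey1 over all alternatives ranged from 0.00114 to 0.980.

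The receptors followed no common direction. Notch1, which is expressed in many epithelia, has 2 probe sets that differed. Its brighter one, 1418634_at, ranged from 9.08 to 11.14 in normals (median 9.71) and from 9.13 to 11.12 in tumours (median 9.95). Normal 3 and tumour 4 were the highest of their groups, the ranges coincided almost fully, and the log2 difference was 0.31 ± 0.299 (SE; limma adjusted p = 0.476).

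The dimmer Notch1 probe set, 1418633_at, was higher in tumours. It ranged from 6.04 to 9.29 in normals (median 7.78) and from 8.36 to 9.48 in tumours (median 8.85). All 9 tumours lay above the normal median, and of the normals only 3 and 9 reached the tumour range. Tested over 27292 probe sets, of which limma called 19.6%, it was the 1 of 14 member probe sets called, with a log2 difference of 1.07 ± 0.309 (SE; 95% confidence interval 0.43 to 1.72; adjusted p = 0.0205). This is a 2.10-fold higher signal.

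This call was kept in all 18 omissions of a single array (adjusted p at most 0.0417). Adding each array's actin ratio to the model ended it, at a log2 difference of 0.79 (adjusted p = 0.135). Among arrays with bright spike controls the difference was 1.33 (adjusted p = 0.0450) and among those with dim controls 0.56 (adjusted p = 0.647), where limma called 0 genes of 12793, with 1639 at an unadjusted p under 0.05. Over all alternatives the adjusted p ranged from 0.00314 to 0.647. The probe sets' places in the transcript were not analysed here.

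**Figure D2:**
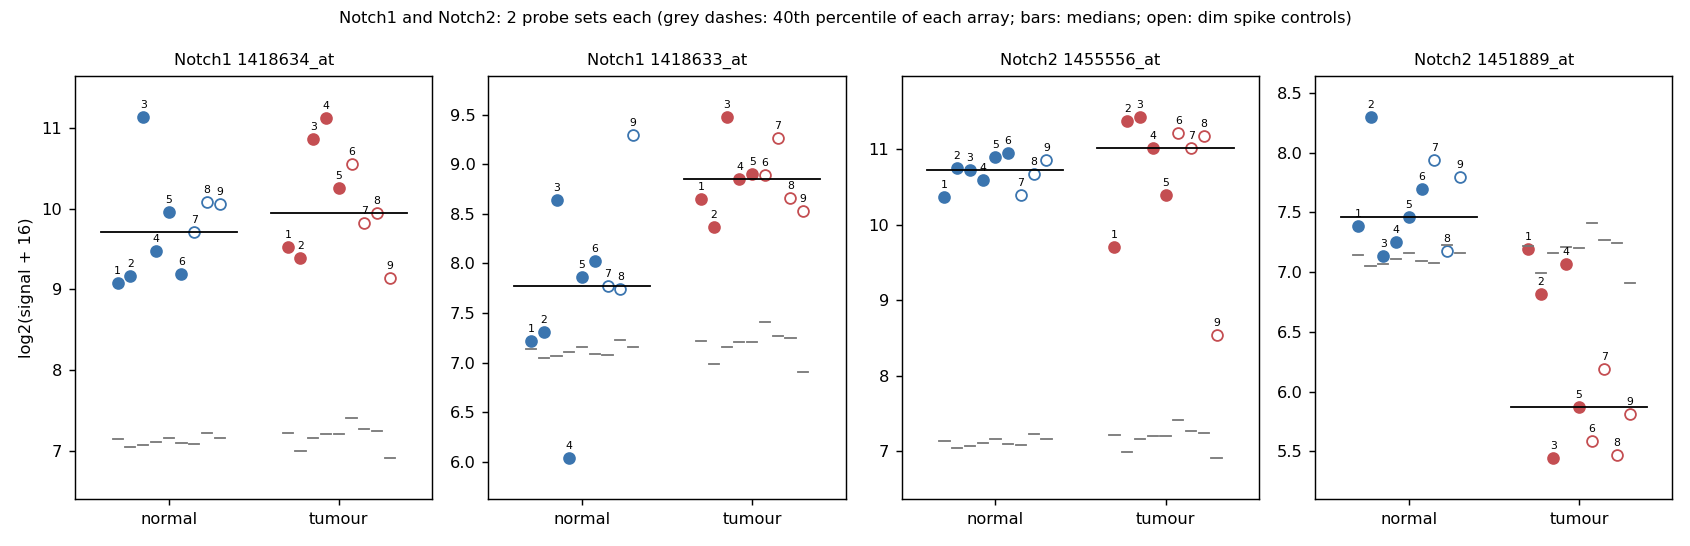
Log2(signal + 16) of both probe sets of Notch1 and of Notch2 by array, with group medians as bars, the 40th percentile of each array as a grey dash, and open points for arrays with dim spike controls. Notch1 1418633_at is above the normal median in all 9 tumours while 1418634_at overlaps almost fully, and Notch2 1451889_at is under the percentile on all 9 tumour arrays while 1455556_at spreads more widely in tumours than in normals.

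Notch2, a receptor closely related to Notch1, was narrow in normals and wide in tumours. Probe set 1455556_at ranged from 10.37 to 10.94 in normals (median 10.72, SD 0.21) and from 8.53 to 11.43 in tumours (median 11.02, SD 0.96). Tumours 2, 3, 4, 6, 7 and 8 lay above every normal, and tumours 1 and 9 lay below every normal at 9.70 and 8.53. The log2 difference was -0.037 ± 0.312 (SE; 95% confidence interval -0.69 to 0.62; limma adjusted p = 0.948). Without tumours 1, 4 and 9, the tumours high in neuroendocrine markers, it was 0.41 (adjusted p = 0.0833, in a range of 0.0833 to 0.999 over all alternatives), and it was 0.082 without tumour 1 alone and 0.23 without tumour 9 alone.

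The other Notch2 probe set, 1451889_at, was above its array's 40th percentile on 8 of 18 arrays, all of them normal, and so lay under the filter. It ranged from 7.13 to 8.30 in normals and from 5.44 to 7.20 in tumours, and 8 of 9 tumours lay below every normal. With dim values raised to the 40th percentile its signal was at least 1.31-fold lower in tumours. In a fit of all 45037 probe sets with no filter, where limma called 11.5%, its adjusted p was 0.00182, a value that rests on tumour signals under the percentile. Both probe sets carry the symbol Notch2, and the difference between them was not tested.

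Notch3, a receptor known for its role in the smooth muscle and pericytes of vessel walls, ranged from 9.07 to 10.62 in normals and from 8.20 to 10.95 in tumours on probe set 1421965_s_at, whose suffix marks probes that can match several transcripts. Tumour 9 was the lowest of all arrays and tumours 4 and 5 the highest, and the log2 difference was 0.067 ± 0.311 (SE; limma adjusted p = 0.900). The second probe set, 1421964_at, was dim on 12 of 18 arrays. The log2 difference of Notch3 turned to -0.078 without tumour 4, to -0.052 without tumour 5 and to -0.015 without normal 7. It was 0.50 within the bright spike set and -0.44 within the dim one (adjusted p = 0.271 and 0.723).

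Notch4, which is expressed mainly in endothelium, ranged from 6.03 to 8.87 in normals (median 7.54) and from 7.31 to 8.74 in tumours (median 7.85) on probe set 1449146_at. Every tumour lay within the normal range, 4 normals and 1 tumour were dim, and the log2 difference was 0.63 ± 0.373 (SE; limma adjusted p = 0.229). With dim values raised to the 40th percentile the difference was 0.31. It was 0.94 within the bright spike set and 0.15 within the dim one (adjusted p = 0.168 and 0.937). Probe set 1456263_at was higher than every normal in 5 tumours, with a log2 difference of 0.41 ± 0.205 (SE; limma adjusted p = 0.163 over probe sets). The third probe set, 1436901_at, was above the percentile on 4 arrays.

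Notch4 was highest in normals 9, 2 and 4 and in tumours 3, 5 and 7. The mean of the 8 endothelial markers was 8.86, 8.71 and 8.53 on those normals and 8.65, 8.55 and 8.12 on those tumours. Tumours 1 and 4 had endothelial means of 8.49 and 8.41, above that of tumour 7, with Notch4 values of 8.39 and 7.51. That mean ranged from 6.84 to 8.86 over normals and from 7.12 to 8.65 over tumours. Of its 7 tested genes, limma called 0 in either direction at an adjusted p under 0.05, with 0 at an unadjusted p under 0.05, and Tie1 was dim on all 18 arrays. The part of vessel content in the Notch4 values was not tested.

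Among the ligands, Jag1, a ligand expressed in basal epithelium and vessel walls, has 2 probe sets above the filter. On 1434070_at it ranged from 9.06 to 11.60 in normals (median 10.03) and from 9.26 to 12.02 in tumours (median 10.93). Tumours 1 to 5 read 10.93 or more, whereas tumours 6, 7 and 8 read 9.38, 9.90 and 9.26, below the normal median. The log2 difference was 0.44 ± 0.363 (SE; 95% confidence interval -0.33 to 1.20; limma adjusted p = 0.403). Tumours 1 to 5 are those with bright spike controls, and within the bright set the difference was 0.87 (adjusted p = 0.0962), within the dim set 0.077 (adjusted p = 0.945), and 0.56 with the set as a block (adjusted p = 0.128).

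Jag1 probe set 1421106_at ranged from 6.74 to 8.87 in normals (median 8.28) and from 8.25 to 9.39 in tumours (median 8.68). Of the tumours, 7 lay above the normal median and 3 above every normal, and the log2 difference was 0.68 ± 0.241 (SE; 95% confidence interval 0.18 to 1.18; limma adjusted p = 0.0533). Omitting normal 3, normal 9, tumour 8 or tumour 9 moved it past the threshold, with adjusted p of 0.0252, 0.0422, 0.0477 and 0.0487. It was called with bright spike controls alone (0.86, adjusted p = 0.0396) and not with dim controls alone (0.54, adjusted p = 0.662), and its adjusted p over all alternatives ranged from 0.0252 to 0.662. The third probe set, 1421105_at, was above the percentile on 8 arrays.

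Tumour 4 and normal 3 held the highest Jag1 values of their groups on both of these probe sets. The same 2 arrays read highest in Nrarp, a target gene whose product limits Notch signalling, at 11.91 and 12.04, where the other arrays reached 10.28. They also led their groups in the means of the 4 basal epithelial markers, 11.1 on both, and of the 4 urothelial markers, 13.7 on tumour 4 and 13.8 on normal 3. Over the groups the basal mean ranged from 7.78 to 11.1 in normals and from 6.02 to 11.1 in tumours, and the urothelial mean from 8.10 to 13.8 and from 7.41 to 13.7. Limma called 0 of 3 tested basal genes, with 1 at an unadjusted p under 0.05, and 1 of 3 urothelial genes, lower. The part of these cells in the Jag1 values was not tested. Without tumour 4 the log2 difference of Jag1 1434070_at was 0.25, and without normal 3 it was 0.62.

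Jag2, a second Jagged ligand, ranged from 8.20 to 9.23 in normals and from 8.47 to 9.73 in tumours on 1426430_at, with 3 tumours, 2, 3 and 4, above every normal. Its log2 difference was 0.15 ± 0.177 (SE; 95% confidence interval -0.22 to 0.53; limma adjusted p = 0.557), and that of 1426431_at was 0.21 ± 0.260 (adjusted p = 0.596). Dll1, a Delta-like ligand, ranged from 8.55 to 9.21 in normals and from 8.05 to 9.53 in tumours. Tumours 1 and 9 lay above every normal and tumours 2 and 8 below, and the log2 difference was -0.065 ± 0.188 (SE; 95% confidence interval -0.46 to 0.33; limma adjusted p = 0.833). The Dll1 difference was 0.026 without tumour 2 and 0.032 without tumour 8.

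Dlk1, which resembles Delta-like ligands but lacks the part that activates Notch, ranged from 6.79 to 8.32 in normals (median 8.003) and from 6.69 to 7.86 in tumours (median 7.49) on 1449939_s_at. All 9 tumours lay below the normal median, though normals 7, 8 and 9 lay within the tumour range. The log2 difference was -0.37 ± 0.212 (SE; limma adjusted p = 0.212), -0.49 among arrays with bright spike controls (adjusted p = 0.0376) and 0.0097 among those with dim controls (adjusted p = 0.991). Probe set 1442724_at was dim on all 18 arrays.

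**Figure D3:**
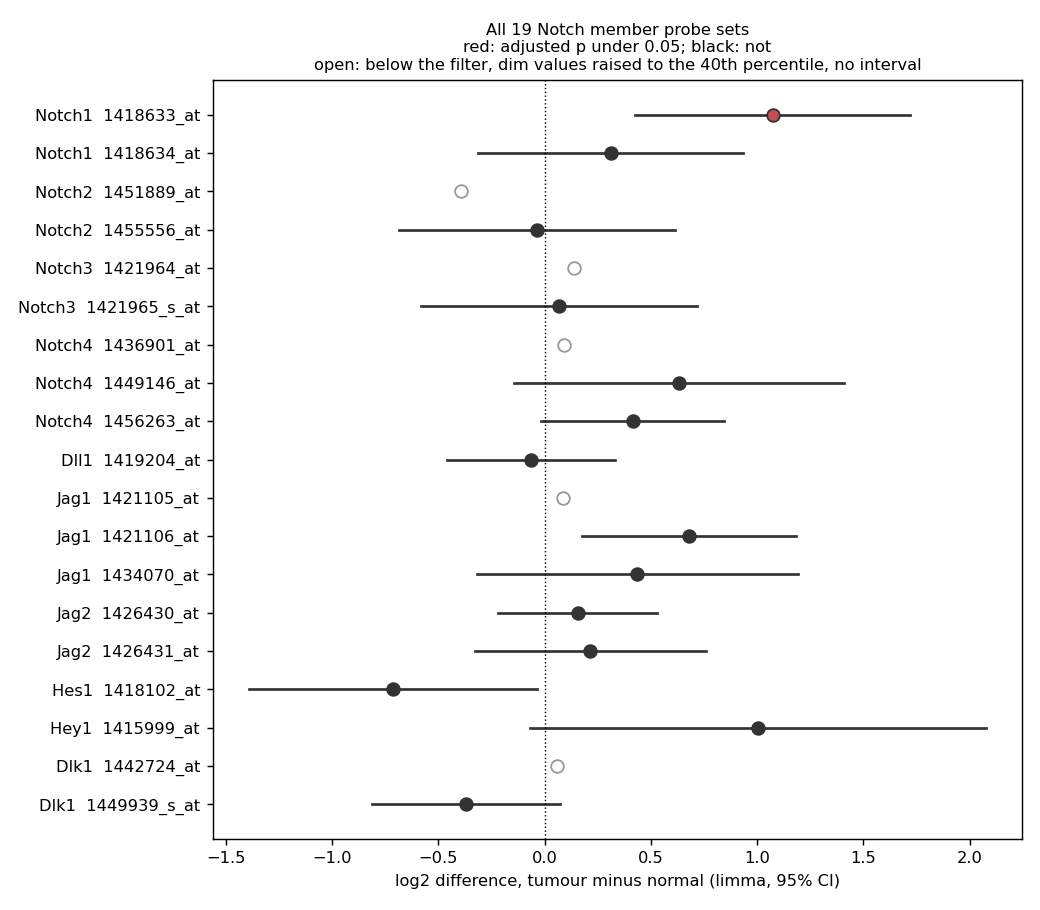
Log2 difference, tumour minus normal, for all 19 Notch member probe sets, with the 95% confidence interval from limma for those above the filter. Filled points are the 14 probe sets above the filter, red where the adjusted p was under 0.05, and open points are the 5 below it, with dim values raised to the 40th percentile and no interval. Notch1 1418633_at at 1.07 is the red point, and Notch2 1451889_at lies at -0.39 among the open points.

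**Figure D4:**
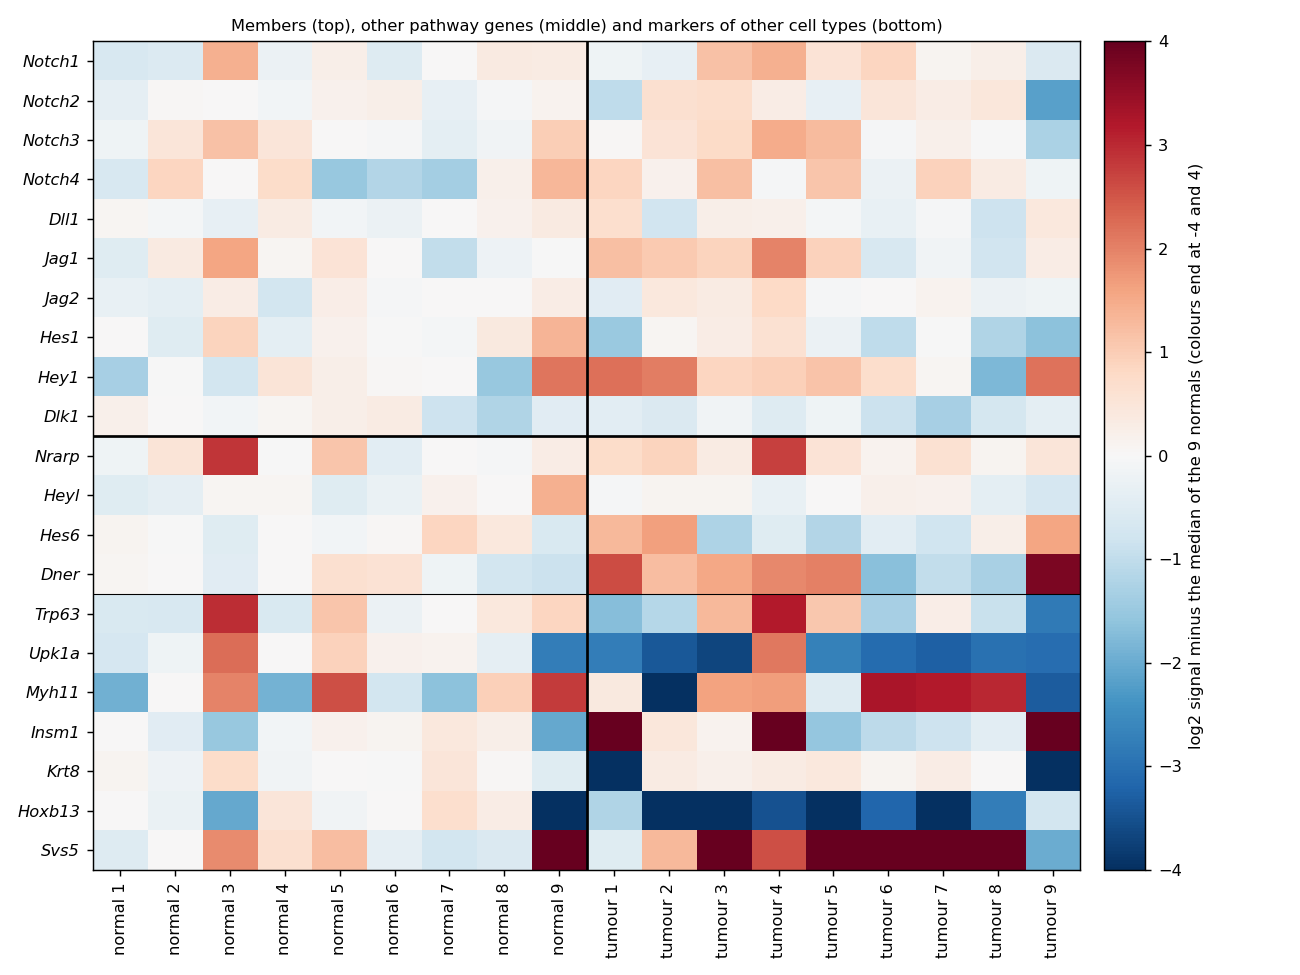
Log2 signal minus the median of the 9 normals for the 10 members, for Nrarp, Heyl, Hes6 and Dner, and for markers of basal epithelium (Trp63), urothelium (Upk1a), smooth muscle (Myh11), neuroendocrine cells (Insm1), luminal epithelium (Krt8 and Hoxb13) and seminal vesicle (Svs5). Columns are arrays, and colours end at 4 in either direction. Upk1a does not stand for the whole urothelial list. On tumours 6 and 8 it read 7.90 and 8.02, below every normal, where Upk2 was within the normal range. Upk1b read 12.85 and 13.12 there, above every normal but normal 3. Jag1, Nrarp and Trp63 are high on normal 3 and tumour 4. Hes1 and Krt8 are low while Dner and Insm1 are high on tumours 1 and 9, where Hoxb13 read 11.70 and 12.15, the highest values of the tumours. Dner was also above every normal on tumours 2, 3, 4 and 5, and Insm1 was high on tumour 4 too. Hes1 was also below every normal on tumours 6 and 8. The log2 difference of Dner was 1.12 (limma adjusted p = 0.189).

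Of 48 other pathway genes, 42 were tested, 3 had no single-gene probe set and 3 lay under the filter. Limma called 6 of 42, 3 higher and 3 lower, where 11.3% of all genes were called higher and 12.7% lower. Their median log2 difference was 0.0051, with 21 above and 21 below 0. The 6 lay among the ligand ubiquitin ligases, the receptor glycosyltransferases and the inhibitors and corepressors. None of the other ligands, receptor proteases, nuclear complex genes or other target genes passed. Of all 42 tested, 15 had a limma unadjusted p under 0.05, against 37.1% of all genes. In the uncalled roles it was 5 of 19. Those roles were picked for having no call, so that count cannot be set against the share of all genes.

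Neurl1b, a ubiquitin ligase that promotes ligand uptake, rose in tumours. It ranged from 7.44 to 8.27 in normals and from 7.96 to 11.39 in tumours, and 8 of 9 tumours lay above every normal. Tumours 9 and 1 were the highest at 11.39 and 10.87, and tumour 5 was the tumour that overlapped. The log2 difference was 1.73 ± 0.353 (SE; limma adjusted p = 0.00212), and the other 3 ligases of the list were not called. Poglut1, which adds O-glucose to Notch receptors, rose by a log2 difference of 0.41 ± 0.142 (SE; adjusted p = 0.0409), a call lost in 13 of 18 omissions of an array (all but those of normals 3 and 5 and tumours 2, 6 and 8). Lfng, which extends O-fucose on the receptor and whose promoter is printed above, had a log2 difference of 0.49 ± 0.241 (SE; limma adjusted p = 0.150), with 4 tumours above every normal. With the spike set as a block Lfng was called, at 0.57 (adjusted p = 0.0252, in a range of 0.0252 to 0.529 over all alternatives).

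The Groucho-family corepressors, partners of Hes repressors, were divided. Tle1 rose: it ranged from 9.49 to 10.59 in normals and from 9.92 to 12.12 in tumours, with tumour 5 the highest and 6 tumours above every normal. Tle3 ranged from 10.42 to 11.88 in normals and from 9.06 to 10.94 in tumours and Tle4 from 9.19 to 11.81 and from 8.85 to 10.22, and both fell. The log2 differences were 0.98 ± 0.227 for Tle1, -1.10 ± 0.279 for Tle3 and -1.24 ± 0.293 for Tle4 (SE; limma adjusted p = 0.00467, 0.00839 and 0.00545). Tle2 had a log2 difference of 0.35 (adjusted p = 0.345). With the mean of its probe sets in place of the brightest, Tle4 was no longer called (adjusted p = 0.0868, in a range of 5.32e-05 to 0.505 over all alternatives). Tle1 was not called without normal 9 and tumours 3, 5, 6, 7 and 8, at a log2 difference of 0.55. Tle3 was not called without normals 1, 3 and 9 and tumours 3, 4, 5 and 7, at -1.07.

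Itch, a ubiquitin ligase that acts on the receptor, fell by a log2 difference of -0.48 ± 0.139 (SE; limma adjusted p = 0.0180) on its brightest probe set. Its 3 other probe sets had log2 differences of -0.032, 0.084 and 0.071, and on the mean of the 4 the call was lost (adjusted p = 0.570, in a range of 0.00907 to 0.570 over all alternatives). With the actin ratio in the model the Itch difference was -0.45 and was not called. Of the 14 tested inhibitors and corepressors, 10 were not called.

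Within the arrays with bright spike controls limma called 16.5% of all genes. There 4 of the 6 called pathway genes were called, with log2 differences of 1.44 for Neurl1b, 1.11 for Tle1, -1.10 for Tle3 and -1.42 for Tle4. Poglut1 at 0.37 and Itch at -0.30 were not. Within the arrays with dim controls limma called 0 of 12793 genes, so the lack of calls there says nothing particular of these 6. The log2 differences were 2.04 for Neurl1b, 0.69 for Tle1, -1.18 for Tle3, -0.85 for Tle4, 0.56 for Poglut1 and -0.70 for Itch, each with the sign it had over all arrays. The fit that picked these 6 genes holds both sets of arrays, so the calls and shared signs are not independent of it.

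**Figure D5:**
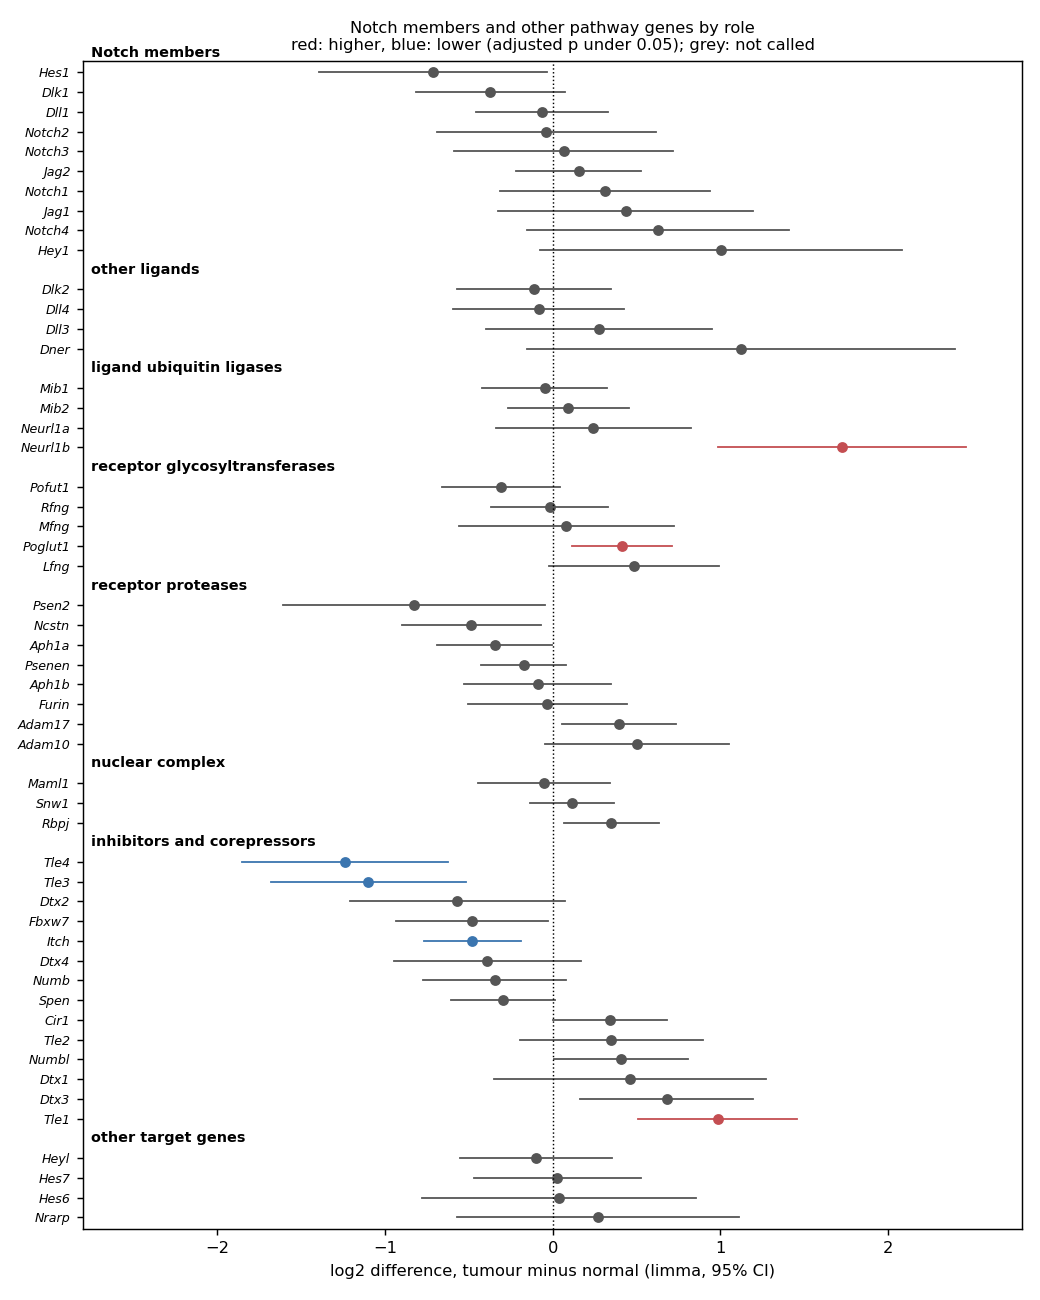
Log2 difference, tumour minus normal, with its 95% confidence interval from limma for the 10 Notch members and 42 other pathway genes, grouped by role. Red and blue points passed an adjusted p of 0.05 in the higher and lower direction: Neurl1b, Poglut1 and Tle1 are red and Tle3, Tle4 and Itch are blue.

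RBPJ, the DNA-binding partner of all Notch receptors, was narrowly spread. Rbpj ranged from 10.08 to 10.71 in normals and from 10.32 to 11.23 in tumours, with tumours 1 and 9 above every normal, and its log2 difference was 0.35 ± 0.134 (SE; limma adjusted p = 0.0636). Omitting normal 6, tumour 2 or tumour 5 moved it past the threshold (adjusted p = 0.0477, 0.0404 and 0.0492, in a range of 0.0404 to 0.449 over all alternatives). Dll4, an endothelial ligand, was dim on 4 normal and 5 tumour arrays and had a log2 difference of -0.084 (adjusted p = 0.833).

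Of the genes grouped here as other target genes, Heyl, Hes6 and Nrarp had log2 differences of -0.10, 0.038 and 0.27 (limma adjusted p = 0.768, 0.958 and 0.659). Whether Notch regulates Hes6 in these samples was not tested, so its values are not a reading of Notch activity. Hes6 read 10.94, 11.31 and 11.24 on tumours 1, 2 and 9, above every normal, and 8.41, 8.48 and 8.85 on tumours 3, 5 and 7, below every normal. Heyl was highest on normal 9 at 9.51, as were Hes1 and Hey1 among the normals. Hes5, whose promoter is printed above, lay under the filter. One of its probe sets was dim on all 9 normals, where it reached 5.999, and read 9.34 on tumour 1.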

How the data were processed

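The deposited table holds probe set intensities, not logged, which the submitters' processing notes credit to MAS5, with no version named. Every array's deposited intensities have a trimmed mean of 500 (2% trimmed at each end), so arrays share 1 overall brightness while intensity-dependent differences remain. The label protocols give Trizol extraction and biotin labelling. Gene names are those of the platform annotation, which gives a single gene for 34945 of 45101 probe sets.

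Log2(signal + 16) was fitted by group with limma 3.58.1 (R 4.3.3; lmFit, then eBayes, two-sided tests) over 12793 genes and again over the 27292 probe sets above the filter, with Benjamini-Hochberg adjustment over each whole table. The code was tested on simulated data first. Marker lists are given as means of log2 values over genes with a single-gene probe set.

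The text names all members and their probe sets, pathway genes past the threshold, and Rbpj, Hes6, Heyl, Nrarp, Dll4 and Lfng. Dner, Hes5, Tle2 and the member probe set of Notch2 below the filter were picked out after their values were seen. The members, lists, array omissions and alternatives were chosen with earlier results of these data known. Figures were drawn with matplotlib 3.10.9.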

Additional observations from a re-analysis of the deposited data

Results flagged for a closer look

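In 62 groups of 9 arrays, from 19 member probe sets and 12 other pathway genes in each of the normal and tumour groups, 5 held an array whose gap to its nearest neighbour was large against the group's range (Dixon's test). Chance flags about 1 in 20 such groups. Notch1 probe set 1418634_at read 11.14 on normal 3, where the next normal read 10.08. Nrarp read 12.04 on the same array, against 10.28 on the next, and 11.91 on tumour 4, against 10.06 on the next tumour. Notch4 probe set 1456263_at read 6.65 on tumour 9, below the 7.45 of the next tumour. Heyl read 9.51 on normal 9, above the 8.27 of the next normal.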

How the results depend on the processing

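Of 532 comparisons of single genes or probe sets with settings other than the omission of 1 array, 465 kept direction and side of the threshold. Counts of all genes called were 3067, but 0 with dim spike controls alone, 1634 with the actin ratio as a covariate and 4860 without normal 9 and tumours 3, 5, 6, 7 and 8. Members called were 2 with bright spike controls alone, and 1 without normal 9 and tumours 3, 5, 6, 7 and 8 or without normals 1, 3 and 9 and tumours 3, 4, 5 and 7, against 0. Other pathway genes called, 6 of 42 in the fit reported, were 11 with array weights, 10 with the spike group as a block, 0 with dim controls alone, 10 without normal 9 and tumours 3, 5 and 7, and 13 when tumours 6 and 8 were left out too. Of all 12793 genes, those settings called 3809, 3186, 0, 3934 and 4860 in that order, against 3067. Member probe sets called, 1 of 14 in the fit reported, were 2 of 19 with no filter and 2 of 9 with a 60th percentile filter. Of all probe sets these settings called 5172 of 45037 and 4317 of 17896. The count was 2 of 14 with a pseudocount of 64, array weights, the spike group as a block, tumours 6 and 8 averaged, or without normals 1, 3 and 9 and tumours 3, 4, 5 and 7. Of all 27292 probe sets, those settings called 5531, 6906, 5655, 5151 and 6478 in that order. Member probe sets called were 4 of 14 with bright controls alone, 3 without normal 9 and tumours 3, 5, 6, 7 and 8, and 0 with dim controls alone or the actin covariate. Of all 27292 probe sets, these last settings called 3634, 9055, 0 and 2560 in that order, against 5358 in the fit reported. The causes were not tested.

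Log2 differences changed sign as follows. With dim controls alone they were -0.081 for Notch1, -0.44 for Notch3, -0.17 for Jag2, -0.23 for Jag2 1426431_at, 0.0097 for Dlk1, -0.085 for Hes6 and 0.062 for Dll4. With bright controls alone they were 0.072 for Notch2, 0.12 for Dll1 and 0.22 for Heyl. With array weights they were 0.20 for Notch2, -0.31 for Hes6 and 0.14 for Heyl. Centring on the 75th percentile gave -0.012 for Notch3 and -0.041 for Hes6, and quantile normalization -0.038 for Hes6. The actin covariate gave -0.0050 for Hes6 and -0.069 for Jag2 1426431_at. Without normal 9 and tumours 3, 5 and 7 Notch3 was -0.050, without normals 1, 3 and 9 and tumours 3, 4, 5 and 7 it was -0.22, and without normal 9 and tumours 3, 5, 6, 7 and 8 Dll1 was 0.16 and Notch4 1456263_at -0.017. Among settings added after seeing the data, leaving out normal 9 and tumour 4 gave 0.10 for Heyl and -0.00053 for Nrarp, and leaving out tumours 1, 4 and 9 gave 0.41 for Notch2, -0.32 for Hes6, 0.024 for Heyl, -0.024 for Nrarp and 0.030 for Dll4.

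Omitting 1 array at a time gave 0 to 1 members called, 1 to 3 member probe sets, and log2 differences of -0.13 to 0.23 for Notch2, -0.078 to 0.27 for Notch3, -0.15 to 0.032 for Dll1, -0.16 to 0.20 for Hes6, -0.17 to 0.074 for Heyl and -0.19 to 0.035 for Dll4. The sign turned without tumour 1 or 9 for Notch2, without normal 7, tumour 4 or tumour 5 for Notch3, without tumour 2 or 8 for Dll1, without normal 3, normal 9 or tumour 1, 2 or 9 for Hes6, without normal 9 for Heyl, and without tumour 8 or 9 for Dll4. All genes called ranged from 2455 to 3411. Member probe sets reached 3 without tumour 8 and 2 without normal 3, normal 9 or tumour 9.

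Equal replicate numbers did not pair the samples: same-numbered arrays had correlations of deviations from -0.106 to 0.314. For 0 of 9 normals was the best-matching tumour the one with the same number. With the replicate number as a block limma called 2645 genes, 0 members, 5 other pathway genes and 1 member probe set. Calls higher in tumours were 1444 of 3067, and 1123 of 3180 when arrays were centred on the 75th percentile. Dim probe sets limit what can be said of Notch4, Hey1, Dll4, the 5 probe sets below the filter and, with 1 normal and 2 tumour arrays dim, Dlk1.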
